A study of Mus musculus with 16 samples.

Results

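The BCL2 family genes that set the survival of a neutrophil were followed here as 10 named members, taken by their gene symbols. They were the antiapoptotic genes Mcl1, Bcl2a1a, Bcl2a1b, Bcl2a1d, Bcl2l1 and Bcl2 and the proapoptotic genes Bcl2l11, Bid, Bax and Bak1. All 10 were among the 23337 gene symbols of the deposited table, and 9 of the 10 were among the 9213 genes that passed the filter on low counts. Blood neutrophils of 8 week old mice on the C57/Bl6 strain were isolated by magnetic negative selection and sequenced in bulk as 16 libraries. LTβRΔN mice carried the floxed Ltbr alleles (Ltbrfl/fl) with Mrp8-Cre, in which the promoter of the granulocyte gene S100a8 drives Cre and Ltbr is removed from neutrophils, while their littermate controls carried Ltbrfl/fl without Cre, so that both genotypes shared the floxed allele. Control neutrophils gave 3 libraries labelled unstimulated and 4 labelled stimulated, and LTβRΔN neutrophils gave 4 and 5. The labels say only "unstimulated" or "stimulated". The protocol gives all cells 2 h with TNF (100 ng/ml), IL-6 (50 ng/ml) and GM-CSF (100 ng/ml), and adds LIGHT, a ligand of LTβR, at 500 ng/ml to some of them, whereas the design text of the series makes the cytokines the treatment. Groups are therefore named by their labels, and no difference between them is assigned to 1 agent. No label says whether the libraries of a group came from separate mice, so p-values measure the spread between these libraries, which may be technical.

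BCL2 family proteins meet at the outer membrane of the mitochondrion, where BAX and BAK1, once active, open pores that let out cytochrome c and start the caspases. BH3-only proteins such as BIM (encoded by Bcl2l11) and BID set BAX and BAK1 off, and antiapoptotic members such as MCL1, A1 (encoded by the Bcl2a1 genes), BCL-XL (encoded by Bcl2l1) and BCL2 hold both kinds in check. Neutrophils live for a short time, depend on the quickly turned over MCL1 protein for survival, and are known to raise A1 when they meet inflammatory cytokines.

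Total counts per library ranged from 1094335 to 11932653, and 3 libraries had under 2000000 counts. The labels were first checked on Ltbr and on Cish, a target of GM-CSF signalling. Ltbr averaged 116 CPM in unstimulated and 109 CPM in stimulated control libraries against 8.22 and 8.65 CPM in LTβRΔN libraries, where CPM are counts scaled to a library total of 1000000 after TMM, the edgeR factor for library composition. Cish was higher with the stimulated label by 8.60 (control) and 8.05 (LTβRΔN) on the log2 scale. It averaged 1.01 CPM without and 435 CPM with the label in control, and 2.44 and 378 CPM in LTβRΔN libraries. Which agent this difference reflects was not tested. Of 7 neutrophil markers, 6 were in the table, and they summed to between 43986 and 74659 CPM in every library. The B cell gene Ms4a1, the T cell gene Cd3e, the eosinophil genes Prg2 and Epx and the granule genes of immature neutrophils Mpo and Elane were at 0 in all 16 libraries. Not all markers of these cells were at 0, as the 6 T or NK cell markers summed to between 4.30 and 17.3 CPM, the 3 eosinophil markers in the table to at most 11.0 CPM and the 5 B cell markers to at most 1.60 CPM. Camp, Ltf and Ngp, which mark immature neutrophils, summed to between 37.6 and 753 CPM, highest in a stimulated control library. The 4 platelet markers summed to 137 CPM in control stimulated replicate 3, the highest value, and monocyte markers to between 341 and 561 CPM over all libraries. Their part in the results was not tested. In bulk samples, fewer cells of a type and less RNA per cell cannot be told apart. The library index was S521 for all stimulated libraries and S520 for all unstimulated ones except control replicate 3, so that in LTβRΔN neutrophils the index and the treatment label cannot be told apart. A fit with the index as a covariate takes the index effect from the unstimulated control libraries alone, 1 with S521 against 2 with S520.

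The genes of A1 are copies of each other, which bears on how their reads were counted. By symbol, GENCODE M21 (GRCm38, the mm10 build) places Bcl2a1d on the minus strand of chromosome 9 from 88723285 to 88731914, Bcl2a1a on the plus strand from 88956900 to 88962419 and Bcl2a1b on the plus strand from 89199209 to 89207827. Their transcripts were 98.2% to 99.1% identical to each other over the 817 to 819 bases that aligned, gaps left out. Of all windows of 50 bases in the transcript, 69.0% in Bcl2a1a, 57.6% in Bcl2a1b and 79.5% in Bcl2a1d also occurred in another gene of the group. Reads from such windows cannot be assigned to 1 gene by their sequence, so the counts of single Bcl2a1 genes are uncertain and their sum is given beside them. The copies extend into the promoters. RefSeq windows from 250 bases before to 50 bases after the start (GRCm38.p6) were compared between the 3 genes. They were 98.0% to 99.2% identical over the 250 to 294 bases that aligned, gaps left out. They are shown up to the first annotated start because these are the members that rose together. Bases run 5′ to 3′ on the strand of the gene, and capitals mark AGAGGAAG, a sequence that the myeloid factor PU.1 can bind.
Bcl2a1a (plus strand, chr9:88956670-88956899): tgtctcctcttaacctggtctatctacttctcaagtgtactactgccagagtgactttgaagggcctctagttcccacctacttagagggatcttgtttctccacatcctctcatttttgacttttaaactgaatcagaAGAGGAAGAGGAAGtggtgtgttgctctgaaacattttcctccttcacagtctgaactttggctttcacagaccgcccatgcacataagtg
Bcl2a1b (plus strand, chr9:89199023-89199208): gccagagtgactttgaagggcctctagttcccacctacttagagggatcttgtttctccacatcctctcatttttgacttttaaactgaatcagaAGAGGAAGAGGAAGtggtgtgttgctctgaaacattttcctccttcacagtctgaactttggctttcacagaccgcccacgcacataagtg
Bcl2a1d (minus strand, chr9:88731915-88732100): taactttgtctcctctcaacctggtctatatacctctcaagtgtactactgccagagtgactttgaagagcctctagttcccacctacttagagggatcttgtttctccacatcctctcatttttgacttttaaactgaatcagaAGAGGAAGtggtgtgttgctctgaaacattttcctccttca
The copies of AGAGGAAG overlap in Bcl2a1a and Bcl2a1b, which held 2 each, and Bcl2a1d held 1. Searched on both strands, AGAGGAAG stood in 4.55% of all 32851 promoter windows and, among the other members, only in that of Bak1. TGANTCA, a pattern looser than the AP-1 motif, stood once in each of the 3 Bcl2a1 windows and in 7.81% of all windows. In these 3 genes the match was TGAATCA, with A where the AP-1 motif has C or G. Neither the NF-κB consensus (8.46% of all windows) nor the STAT motif TTCNNNGAA (8.30%) was in the windows of these 3 genes or of Mcl1. The motifs were chosen with these sequences in view, and a match or its absence in so short a window says nothing on the binding of a factor.

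In every group the family was dominated by Mcl1. Levels of different genes are compared as CPM per kilobase of exon. Mcl1 stood first in control libraries, with 622 ± 266 (SD, n = 3) CPM per kb without and 1502 ± 126 (SD, n = 4) CPM per kb with the stimulated label. In LTβRΔN libraries it had 1125 ± 185 (SD, n = 4) and 1492 ± 118 (SD, n = 5) CPM per kb. In both unstimulated groups Bid was second, at 78.9 ± 5.22 (SD, n = 3) CPM per kb in control and 76.6 ± 4.37 (SD, n = 4) in LTβRΔN neutrophils, and none of its values overlapped those of the genes next to it. The Bcl2a1 genes are ranked only as their sum, since the counts of single copies are uncertain. The sum is too low if reads shared between the copies were left uncounted. The sum was at 14.8 ± 2.19 (SD, n = 3) and 17.5 ± 5.07 (SD, n = 4) CPM per kb in the unstimulated groups, where it overlapped Bax in control and Bcl2l1 in LTβRΔN neutrophils. In both stimulated groups it took second place, at 399 ± 82.7 (SD, n = 4) and 320.4 ± 100.4 (SD, n = 5) CPM per kb, and overlapped neither Mcl1 nor Bid. Bcl2l1, Bax, Bcl2l11 and Bak1 stayed between 5.13 and 13.5 CPM per kb on average in all 4 groups, and Bcl2 was last in each. The plot of levels by library shows the single values.

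**Figure D1:**
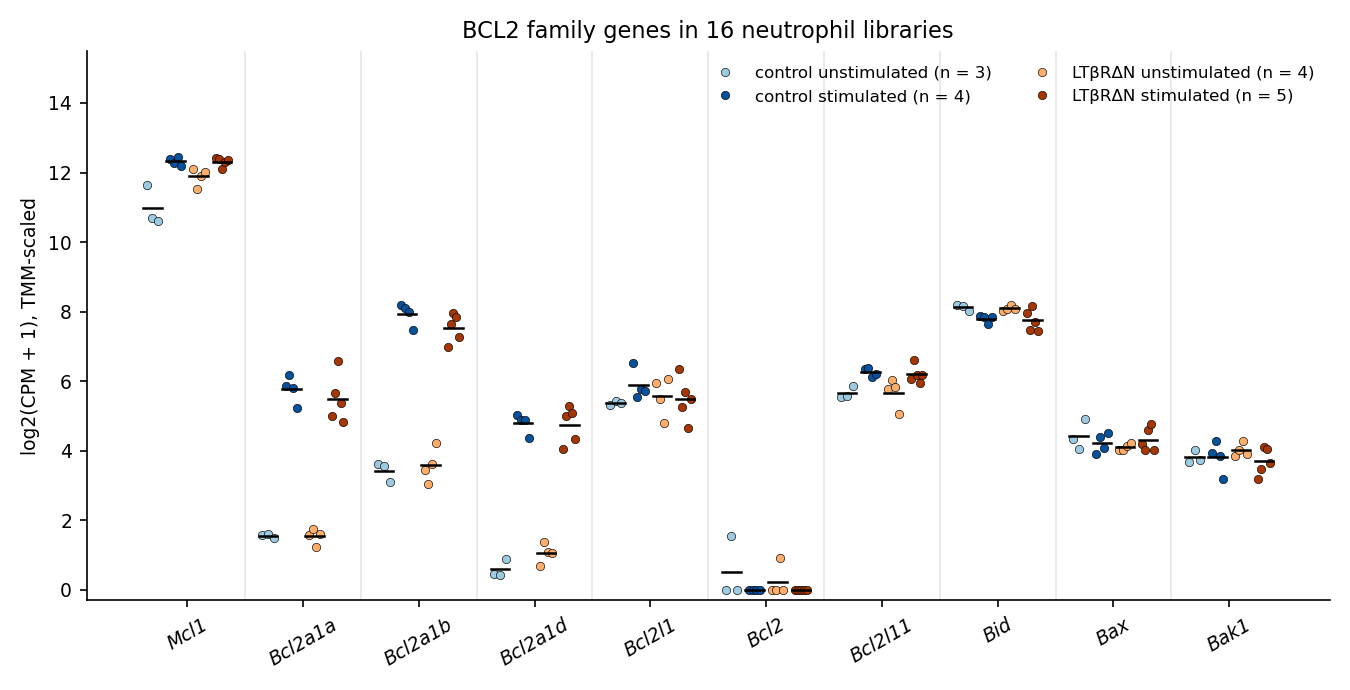
Levels of the 10 genes in each of the 16 libraries, as log2(CPM + 1) on the vertical axis. Points are libraries, coloured by group, and black lines are group means. The 3 Bcl2a1 genes separate the stimulated from the unstimulated libraries, 1 control unstimulated library has more Mcl1 than the other two, and Bcl2 is at 0 in 14 libraries.

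In control neutrophils, Mcl1 and the 3 Bcl2a1 genes rose with the stimulated label and no member fell. That is 4 of 9 tested members higher at an edgeR adjusted p under 0.05, where 2.82% of all tested genes were higher, and 0 of 9 lower, where 0.662% of all genes were. The median log2 fold change was 0.60 over the 9 members and -0.024 over all genes. In LTβRΔN neutrophils the 3 Bcl2a1 genes rose, 3 of 9 members against 2.98% of all genes, and again 0 of 9 members fell, against 0.749% of all genes. There the median was 0.41 over the members and -0.028 over all genes. The 3 Bcl2a1 genes are near-identical copies that share reads, so they are not separate measurements and weigh on these counts and medians. Summed to 1 row, 2 of 7 rows rose in control and 1 of 7 in LTβRΔN neutrophils. With each gene as its own row, DESeq2 called 4 and 3 members too. Among those not called by edgeR only Bid was lower at an unadjusted edgeR p under 0.05, with 0.0400 in control and 0.0287 in LTβRΔN neutrophils.

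Mcl1, on chromosome 3 from 95658788 to 95663176, was at 3172, 1655 and 1549 CPM in the unstimulated and at 5319, 4947, 5630 and 4644 CPM in the stimulated control libraries. Every stimulated library was above every unstimulated one, and unstimulated replicate 1 lay far above the other two. Mcl1 rose by a log2 fold change of 1.27 (SE 0.187, edgeR adjusted p = 5.82e-05), and by 1.68 without that library. Against the 1 unstimulated library with index S521 the log2 ratio was 1.73. In LTβRΔN neutrophils Mcl1 was at 4415, 2965, 3831 and 4172 CPM in unstimulated and at 5458, 5344, 4429.9, 5059.5 and 5213 CPM in stimulated libraries. The groups again did not overlap, but the lowest stimulated and the highest unstimulated library lay side by side. The log2 fold change was 0.41 (SE 0.160, 95% interval 0.075 to 0.74) and did not pass (edgeR adjusted p = 0.228). It passed when only these 2 groups were fitted (0.42, adjusted p = 0.0444) and was 1.05 with the index as a covariate (adjusted p = 0.190), a value that rests on control unstimulated replicate 3 for the index effect.

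Bcl2a1b carried most of the reads of the Bcl2a1 genes. It was at 11.3, 10.8 and 7.58 CPM in the unstimulated and at 292, 276, 256 and 176 CPM in the stimulated control libraries. LTβRΔN neutrophils had 9.90, 7.20, 11.3 and 17.5 CPM without and 125, 201, 248, 228 and 153 CPM with the label. The lowest stimulated library thus had more than the highest unstimulated one by a wide margin in each genotype. Bcl2a1b rose by 4.65 (SE 0.299, edgeR adjusted p = 1.13e-10) in control and by 3.95 (SE 0.260, edgeR adjusted p = 1.64e-10) in LTβRΔN neutrophils on the log2 scale.

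Bcl2a1a went from 1.98, 2.04 and 1.82 CPM to 57.3, 71.4, 55.5 and 36.3 CPM in control neutrophils. In LTβRΔN neutrophils it went from 2.01, 2.40, 1.36 and 2.04 CPM to 31.1, 49.5, 94.4, 40.9 and 27.5 CPM. Its unstimulated libraries were close to each other, while the stimulated LTβRΔN libraries were spread around replicate 3 as the highest. The log2 fold changes were 4.80 (SE 0.441, edgeR adjusted p = 5.05e-08) and 4.65 (SE 0.406, edgeR adjusted p = 1.95e-08). Bcl2a1d had 0.380, 0.340 and 0.842 CPM in unstimulated and 31.6, 28.5, 28.3 and 19.6 CPM in stimulated control libraries. Its values were 0.619, 1.60, 1.13 and 1.11 CPM and then 15.6, 31.2, 38.0, 32.8 and 19.4 CPM in LTβRΔN libraries. No stimulated library came near an unstimulated one. Bcl2a1d rose by 5.70 (SE 0.546, edgeR adjusted p = 9.32e-08) and 4.72 (SE 0.470, edgeR adjusted p = 1.57e-07) on the log2 scale. Its unstimulated libraries held only 3 to 6 counts in control and 2 to 13 counts in LTβRΔN neutrophils, so the size of its rise is uncertain. With the index as a covariate its change in LTβRΔN neutrophils was 3.54 and did not pass (adjusted p = 0.158), again with the index effect taken from control unstimulated replicate 3.

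Summed to 1 row, the Bcl2a1 genes had 13.6, 13.1 and 10.2 CPM in unstimulated and 381, 376, 339 and 232 CPM in stimulated control libraries. In LTβRΔN neutrophils the sum was 12.5, 11.2, 13.8 and 20.7 CPM and then 171, 282, 380.4, 301 and 199.5 CPM. The sum does not depend on how reads were split between the copies, though reads left uncounted would be missing from it. It rose by 4.74 (SE 0.291, edgeR adjusted p = 4.91e-11) and 4.13 (SE 0.253, edgeR adjusted p = 4.73e-11). Bcl2a1b made up 79.5%, 75.3%, 77.5% and 72.3% of it on average in control unstimulated, control stimulated, LTβRΔN unstimulated and LTβRΔN stimulated libraries. It also had the most windows of its own, 326 of 50 bases, against 239 in Bcl2a1a and 167 in Bcl2a1d, so these shares are not a measure of the copies' levels.

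**Figure D2:**
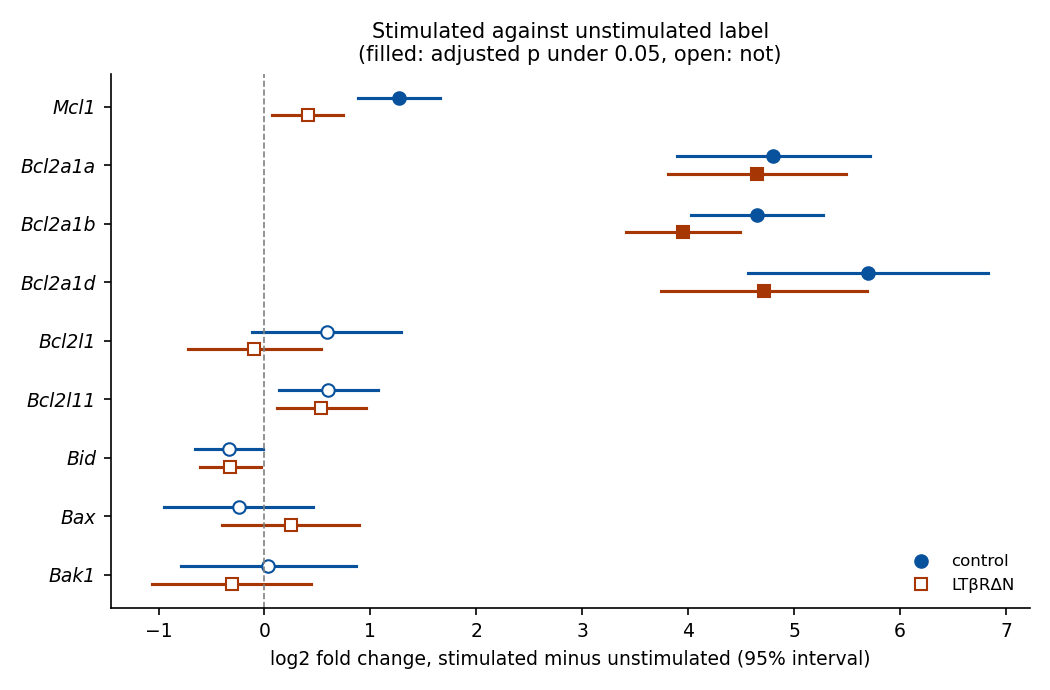
Log2 fold change between the stimulated and the unstimulated label for the 9 tested genes, in control (circles) and LTβRΔN neutrophils (squares). Lines are 95% intervals and filled symbols have an edgeR adjusted p under 0.05. The Bcl2a1 genes stand at 3.95 to 5.70 in both genotypes, Mcl1 at 1.27 and 0.41, and the intervals of Bcl2l1, Bax and Bak1 include 0.

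No other antiapoptotic member passed the test. Bcl2l1, the gene of BCL-XL, had 38.5, 42.3 and 40.6 CPM in unstimulated and 91.8, 45.3, 53.7 and 51.7 CPM in stimulated control libraries. The groups did not overlap, but 1 stimulated library stood well above the others, and the log2 fold change of 0.59 did not pass (SE 0.337, edgeR adjusted p = 0.582). In LTβRΔN neutrophils Bcl2l1 ranged from 26.9 to 66.6 CPM without and from 24.2 to 80.4 CPM with the label, and its log2 fold change was -0.095 (SE 0.302, edgeR adjusted p = 0.963). Bcl2, the founding gene of the family, was barely counted. Of its 21 counts, 17 were in control unstimulated replicate 2 and 4 in LTβRΔN unstimulated replicate 3, and the other 14 libraries were at 0. A count of 0 allows up to 3 counts, which came to between 0.228 and 2.40 CPM depending on the library, so Bcl2 was not detectable at this depth in those libraries and was not tested. Such limits cover counting error only.

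Among the proapoptotic members no change passed. The libraries of both BH3-only genes separated by label in control neutrophils, and those of Bax and Bak1 overlapped. The share of all genes whose libraries separate or overlap in this way was not counted, here or for the other genes named. Bcl2l11, the gene of BIM, had 45.3, 47.0 and 57.3 CPM in unstimulated and 80.3, 82.3, 68.4 and 72.3 CPM in stimulated control libraries. Every stimulated library was above every unstimulated one, with a log2 fold change of 0.60 (SE 0.225, 95% interval 0.14 to 1.07), but the edgeR adjusted p was 0.221. In LTβRΔN neutrophils the values were 53.8, 64.0, 55.7 and 32.0 CPM and then 65.4, 96.8, 71.9, 61.1 and 70.9 CPM. These groups overlapped, since stimulated replicate 4 was below unstimulated replicate 2, and the log2 fold change of 0.54 did not pass (SE 0.203, edgeR adjusted p = 0.200).

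Bid, whose protein links death receptors to the mitochondrion, had 294, 287 and 259 CPM in unstimulated and 232, 231, 198 and 227 CPM in stimulated control libraries. All stimulated values were below all unstimulated ones, at a log2 fold change of -0.34 (SE 0.154, 95% interval -0.65 to -0.017) that did not pass (edgeR adjusted p = 0.398). LTβRΔN neutrophils had 257, 271, 294 and 267 CPM without and 247, 178, 288, 207 and 175 CPM with the label. Here stimulated replicate 3 was within the unstimulated range, and the log2 fold change was -0.32 (SE 0.138, edgeR adjusted p = 0.291). Scaled by library totals only, Bid passed as lower in both genotypes (-0.58, adjusted p = 0.0322, and -0.51, adjusted p = 0.0372), while the median of all genes then moved to -0.27 and -0.21. Without the 3 libraries under 2000000 counts, a setting added after seeing the data, it passed in LTβRΔN neutrophils (-0.55, adjusted p = 0.0283).

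Bax and Bak1, the pore formers, were low and did not pass. Bax ranged from 15.6 to 29.2 CPM in unstimulated and from 13.9 to 21.8 CPM in stimulated control libraries, and from 15.2 to 17.9 CPM and 15.1 to 26.0 CPM in LTβRΔN libraries. Bak1 ranged from 11.9 to 15.3 CPM and 8.12 to 18.5 CPM in control, and from 13.5 to 18.3 CPM and 8.10 to 16.2 CPM in LTβRΔN libraries. The ranges overlapped throughout. The log2 fold changes of Bax were -0.24 (95% interval -0.95 to 0.46) in control and 0.25 (-0.40 to 0.89) in LTβRΔN neutrophils, with edgeR adjusted p of 0.928 and 0.858. Those of Bak1 were 0.036 (-0.79 to 0.86) and -0.31 (-1.06 to 0.44), with edgeR adjusted p of 0.993 and 0.842. The signs of both genes turned under other settings, and the intervals leave room for changes of close to 1 on the log2 scale.

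The make-up of the antiapoptotic transcripts is described next as shares, with no test. Of the summed CPM per kb of the antiapoptotic members in control neutrophils, Mcl1 made up 96.0% ± 1.25 (SD, n = 3) without and 78.4% ± 3.05 (SD, n = 4) with the label. The Bcl2a1 genes made up 2.51% ± 0.71 (SD, n = 3) and 20.9% ± 3.03 (SD, n = 4). In LTβRΔN neutrophils Mcl1 made up 97.5% ± 0.521 (SD, n = 4) and 81.6% ± 5.63 (SD, n = 5), and the Bcl2a1 genes 1.54% ± 0.349 (SD, n = 4) and 17.8% ± 5.73 (SD, n = 5). Shares with and without the label did not overlap in either genotype. Bcl2l1 averaged between 0.566% and 1.52%, and Bcl2 was at most 0.0413% in any library. Among the proapoptotic members Bid made up 75.8% ± 4.71 (SD, n = 3) and 70.3% ± 1.94 (SD, n = 4) in control, and 76.9% ± 0.821 (SD, n = 4) and 69.5% ± 4.41 (SD, n = 5) in LTβRΔN neutrophils. Bcl2l11 made up 5.97% and 10.6% in control and 6.41% and 10.7% in LTβRΔN neutrophils. The ratio of the 6 antiapoptotic to the 4 proapoptotic members, in summed CPM per kb, was 6.18 ± 2.47 (SD, n = 3) and 21.7 ± 3.32 (SD, n = 4) in control neutrophils. It was 11.6 ± 2.33 (SD, n = 4) and 21.2 ± 3.80 (SD, n = 5) in LTβRΔN neutrophils. These shares and ratios describe RNA and not protein, rest mostly on Mcl1 and Bid, and were not tested. They depend on which genes are taken as members, as the proapoptotic gene Pmaip1, which is not among the 4, had group means of 203 to 222 CPM per kb, above those of Bid. If reads shared between the Bcl2a1 copies were left uncounted, the Bcl2a1 shares and the ratios are too low and the Mcl1 shares too high.

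**Figure D3:**
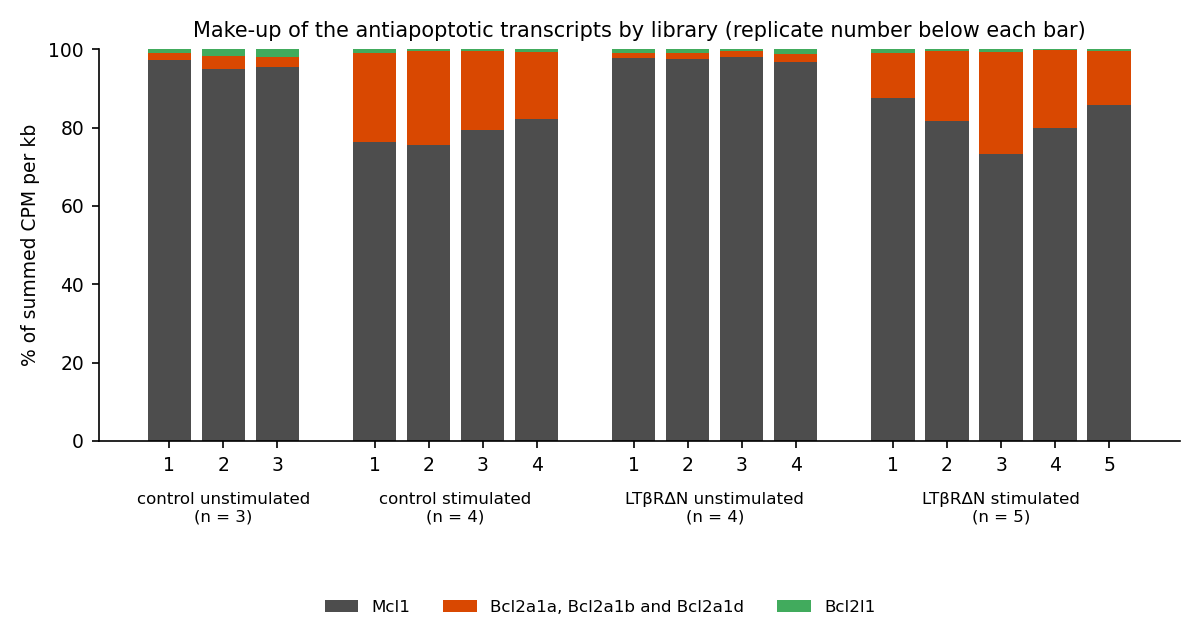
Make-up of the antiapoptotic transcripts in each library, as the percentage of their summed CPM per kb. Each bar is 1 library with its replicate number below, and Bcl2, at most 0.0413%, is too small to see. By the reads counted, Mcl1 fills between 95% and 98.0% of the unstimulated bars, and the Bcl2a1 genes take between 11.4% and 26.2% of the stimulated ones.

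Between the genotypes no member passed the test. Among stimulated libraries 0 of 9 members were called in either direction, where 0.0217% of all genes were, and 0 of 9 had an unadjusted edgeR p under 0.05, against 6.41% of all genes. Log2 fold changes of LTβRΔN against control lay between -0.39 (Bcl2a1b, 95% interval -0.83 to 0.051) and 0.10 (Bax, -0.54 to 0.74). For Mcl1 the difference was -0.0096 with an interval of -0.34 to 0.32. All 9 members overlapped between the stimulated genotypes, and the share of all genes that do so was not counted. DESeq2 also called 0 of 9 here.

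Among unstimulated libraries 0 of 9 members were called by edgeR, again where 0.0217% of all genes were, and 1 of 9, Mcl1, had an unadjusted edgeR p under 0.05, against 2.80% of all genes. The log2 fold changes lay between -0.39 (Bax, 95% interval -1.10 to 0.32) and 1.003 (Bcl2a1d, -0.14 to 2.15). The value of Bcl2a1d rests on 3 to 6 counts per control and 2 to 13 counts per LTβRΔN library. Mcl1 averaged 3846 ± 634 (SD, n = 4) CPM in LTβRΔN against 2125 ± 908 (SD, n = 3) CPM in control neutrophils, a log2 fold change of 0.86 (SE 0.185, 95% interval 0.47 to 1.24, edgeR unadjusted p = 1.24e-04, adjusted p = 0.380). Both other control libraries, at 1655 and 1549 CPM, were below all 4 LTβRΔN libraries, and control replicate 1, at 3172 CPM, was above LTβRΔN replicate 2, at 2965 CPM. Without control replicate 1 the log2 fold change was 1.26 and passed (edgeR adjusted p = 1.41e-04). With all libraries, Mcl1 passed in DESeq2 (0.87, adjusted p = 0.00592) and in edgeR without the filter on low counts (0.85, adjusted p = 0.0467), so its call turned on the test and on 1 library.

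**Figure D4:**
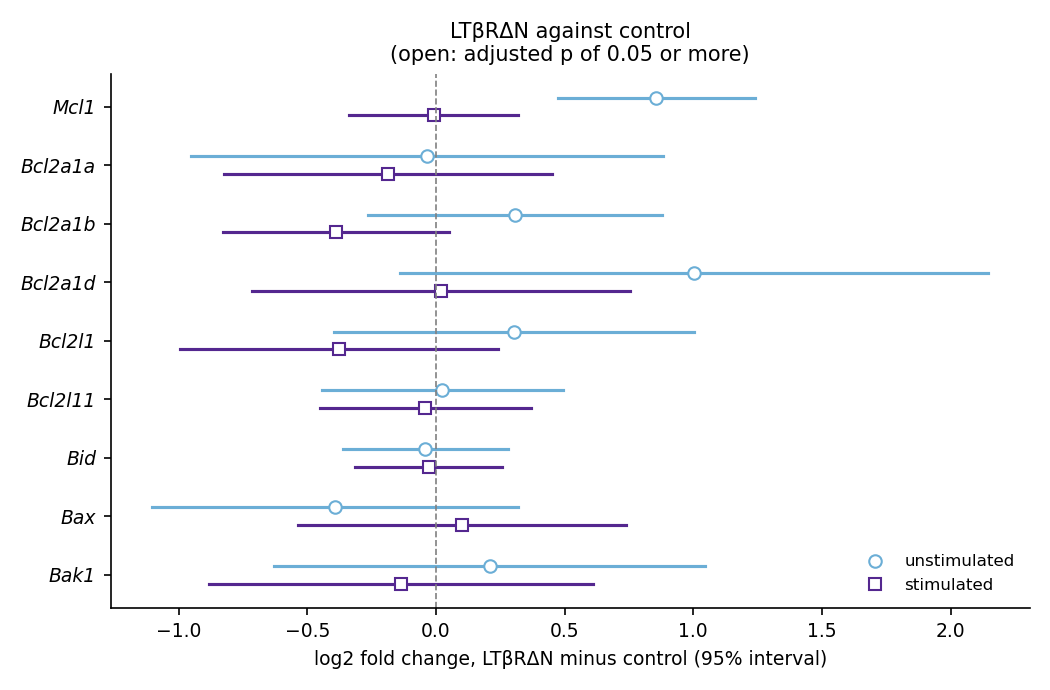
Log2 fold change of LTβRΔN against control for the 9 tested genes, in unstimulated (circles) and stimulated libraries (squares). Lines are 95% intervals and open symbols did not pass an edgeR adjusted p of 0.05. All symbols are open, and Mcl1 in unstimulated libraries, at 0.86, has an interval from 0.47 to 1.24.

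**Figure D5:**
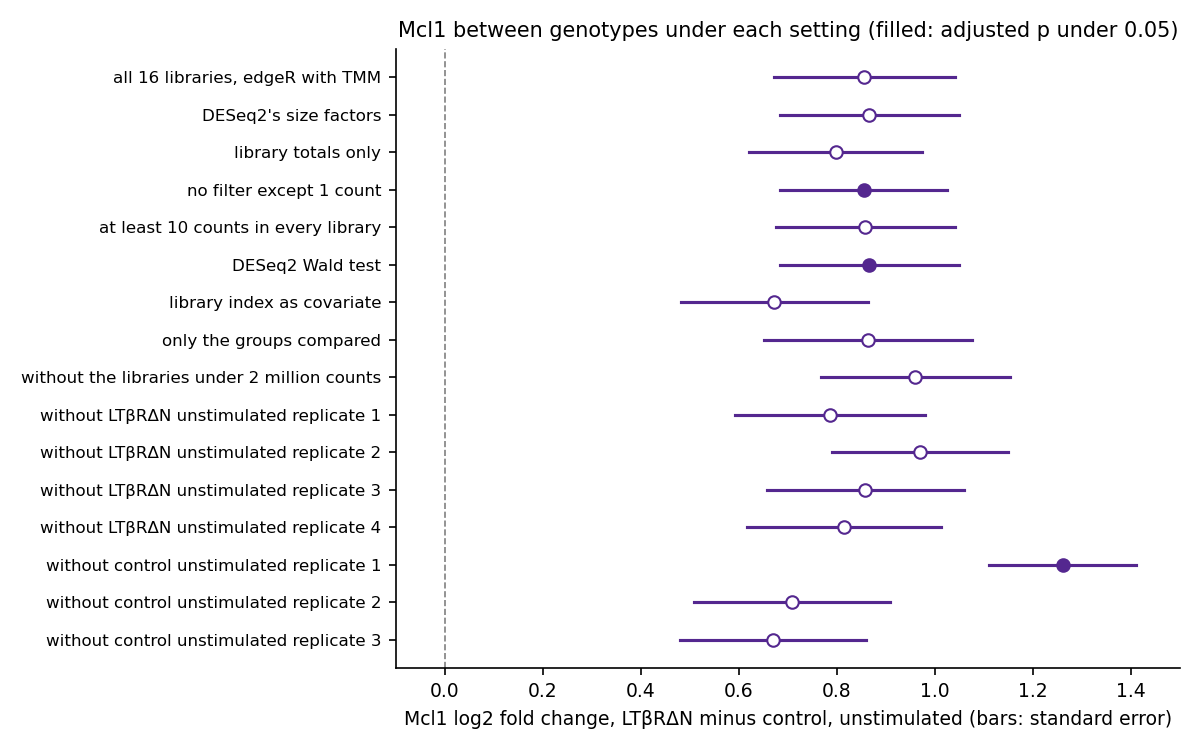
Log2 fold change of Mcl1 between unstimulated LTβRΔN and control libraries under the settings listed, with standard errors as bars and filled symbols for an adjusted p under 0.05. The setting with the Bcl2a1 genes summed is not drawn. The values lie between 0.67 and 1.26, and the largest is the one without control replicate 1.

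The difference between the genotypes in their response to the label was tested as an interaction. It called 0 of 9 members in either direction and 0% of all genes, of which 342, or 3.71%, had an unadjusted edgeR p under 0.05. DESeq2 also called 0 of 9, and 1 of 9, Mcl1, had an unadjusted edgeR p under 0.05. The change of Mcl1 with the label was smaller in LTβRΔN than in control neutrophils by 0.87 on the log2 scale (interaction -0.87, SE 0.242, edgeR unadjusted p = 0.00164, adjusted p = 0.9999). Without the label the genotypes overlapped by the 1 control library named above, and with it Mcl1 averaged 5135 CPM in control and 5101 CPM in LTβRΔN libraries. Without control unstimulated replicate 1 the interaction was -1.27 and passed (edgeR adjusted p = 0.00585). For the Bcl2a1 sum the interaction was -0.61 (95% interval -1.31 to 0.085), so a smaller rise in LTβRΔN neutrophils was not shown.

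In the rest of the family 1 gene changed with the label. Of 16 other BCL2 family genes 8 were tested, and 1 of 8 rose in each genotype (2.82% and 2.98% of all genes in control and LTβRΔN neutrophils) and 0 of 8 fell (0.662% and 0.749% of all genes), although Bbc3 and Bnip3l were lower in LTβRΔN neutrophils at unadjusted edgeR p of 0.0174 and 0.0209. The gene that rose was Bcl2a1c, a further relative of A1 whose transcript shared 10.4% of its windows with the copies above. It had 228 counts in stimulated and 3 counts in unstimulated control libraries, a ratio of pooled rates of 74.4 (95% exact interval 25.1 to 364, counting error only; edgeR adjusted p = 0.00137). In LTβRΔN neutrophils it had 87 and 3 counts, a ratio of 43.5 (14.4 to 215; edgeR adjusted p = 0.00122). Of the BH3-only genes, Pmaip1, the gene of NOXA, which binds MCL1, was well expressed at group means of 555 to 606 CPM and did not pass in any comparison. Bad was at 10.9 ± 4.64 (SD, n = 3) CPM without and 25.5 ± 5.82 (SD, n = 4) CPM with the label in control neutrophils (log2 fold change 1.22, edgeR adjusted p = 0.106). In LTβRΔN neutrophils it was at 20.7 and 18.0 CPM (-0.20, edgeR adjusted p = 0.914), and the interaction did not pass (-1.43, edgeR unadjusted p = 0.0108, adjusted p = 0.9999). Bmf was at 19.1 ± 4.27 (SD, n = 4) CPM in unstimulated LTβRΔN against 4.09 ± 2.69 (SD, n = 3) CPM in unstimulated control neutrophils (2.21, edgeR unadjusted p = 0.00190, adjusted p = 1). With the label, Bmf was at 22.9 CPM in LTβRΔN and 6.65 CPM in control neutrophils (1.81, edgeR unadjusted p = 0.00291, adjusted p = 0.636). Neither gene passed, although in control neutrophils the labels did not overlap for Bad, nor did the unstimulated genotypes for Bmf. The stimulated genotypes overlapped for Bmf.

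Downstream of the mitochondrion, 16 of 18 genes of the apoptosis machinery were tested. With the label 1 of 16 rose in control and 2 of 16 in LTβRΔN neutrophils, and 0 of 16 fell in either, where 2.82% and 2.98% of all genes rose and 0.662% and 0.749% fell. The gene of the IAP antagonist DIABLO was the one member lower at an unadjusted edgeR p under 0.05. It was at 44.3 CPM without and 27.8 CPM with the label in LTβRΔN neutrophils (Diablo, adjusted p = 0.368). Apaf1 and Xiap were higher there and did not pass. Apaf1 was at 13.2 CPM without and 28.1 CPM with the label (1.10, edgeR unadjusted p = 0.0116, adjusted p = 0.175). Xiap was at 50.3 and 71.7 CPM (0.49, edgeR unadjusted p = 0.0204, adjusted p = 0.242). Birc3, which encodes the caspase inhibitor family member cIAP2, rose in control neutrophils, where it had 158 ± 22.1 (SD, n = 3) CPM without and 277 ± 50.6 (SD, n = 4) CPM with the label (log2 fold change 0.81, edgeR adjusted p = 0.0136). It also rose in LTβRΔN neutrophils, with 166 ± 28.2 (SD, n = 4) CPM and 259 ± 60.9 (SD, n = 5) CPM (0.64, edgeR adjusted p = 0.0336). Birc6, the gene of a large inhibitor of apoptosis, rose in LTβRΔN neutrophils, with 19.8 ± 7.44 (SD, n = 4) CPM without and 41.2 ± 8.47 (SD, n = 5) CPM with the label (1.01, edgeR adjusted p = 0.0333). It was 29.7 ± 4.56 (SD, n = 3) and 30.5 ± 4.89 (SD, n = 4) CPM in control neutrophils, and the difference between the genotypes did not pass (interaction 0.98, edgeR adjusted p = 0.9999). Of 7 genes for enzymes that mark MCL1 protein for degradation or spare it, 6 were tested and 0 of 6 passed in any comparison, with 0 to 1 of 6 at an unadjusted edgeR p under 0.05, where 2.80% to 13% of all genes were, depending on the comparison. The one nearest to the threshold was Huwe1, an E3 ligase for MCL1, at 11.1 CPM without and 31.5 CPM with the label in control neutrophils (log2 fold change 1.51, edgeR adjusted p = 0.0694), with groups that overlapped. In LTβRΔN neutrophils it was at 11.9 and 13.5 CPM (0.20, edgeR adjusted p = 0.933). Btrc was lower with the label in LTβRΔN neutrophils, at 14.5 and 4.36 CPM, and did not pass (-1.78, edgeR unadjusted p = 0.0104, adjusted p = 0.163). None of the genes of these 3 lists passed between the genotypes or in the interaction.

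Over the 16 libraries the genes most like Mcl1 in log2 CPM were 4930420K17Rik (Pearson r = 0.928), Snx20 (0.864) and Rab20 (0.863). Snx20 was at 187 ± 63.7 (SD, n = 3) and 467 ± 62.1 (SD, n = 4) CPM in control, and at 277 ± 29.2 (SD, n = 4) and 440 ± 72.2 (SD, n = 5) CPM in LTβRΔN neutrophils without and with the label. Like Mcl1, it had a higher mean in LTβRΔN than in control libraries without the label. Snx20 was picked for its likeness to Mcl1 over these same libraries, so it is not separate support for that difference. The genes most like the Bcl2a1 sum were Sod2 (r = 0.997), Id1 (0.992) and 5430427O19Rik (0.992). Sod2, the mitochondrial superoxide dismutase, went from 23.3 ± 1.64 (SD, n = 3) to 532 ± 68.6 (SD, n = 4) CPM in control and from 30.4 ± 6.49 (SD, n = 4) to 496 ± 138 (SD, n = 5) CPM in LTβRΔN neutrophils. These are descriptions over libraries that share their groups, and a gene that separates the labels as far as Bcl2a1 does will have a high r.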

How the data were processed

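Blood neutrophils were measured by bulk RNA-Seq (single-end, HiSeq2500). The authors deposited 1 table of whole-number read counts per gene symbol, not normalized. The submitters' processing notes name Bowtie 1.0.0, TopHat 1.4.1, HTSeq 0.7.1 and mm10. How reads that match several genes were treated, and whether counting used strand, is not given in the sources used here. Groups were taken from the labels. In R 4.3.3, counts were filtered with filterByExpr (minimum count 10, minimum total 15) and fitted with edgeR 4.0.16 (TMM, quasi-likelihood test, 1 coefficient per group over 16 libraries), with Benjamini-Hochberg adjustment over 9213 genes and a threshold of 0.05. Levels per kb used the union of exons in GENCODE M21, and likeness used log2 CPM with a prior count of 2. Genes named were the 10 members, listed genes that passed or whose role needed a comparison, the 3 genes most like Mcl1 and the Bcl2a1 sum, Ltbr and Cish. Pmaip1, Bmf, Bad, Bbc3, Bnip3l, Diablo, Apaf1, Xiap, Btrc and Huwe1 were named after their values were seen. The members and lists were chosen with earlier results of these data known. Replicate pairs differed by more than sampling noise (chi-square per degree of freedom 6.31 to 47.6 over 25 pairs). The script was tested on simulated data. Alternatives were DESeq2 1.42.0 and its size factors, library totals, both filters, the library index, a replicate block, summed paralogs, only the groups compared, and each library left out.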

Additional observations from a re-analysis of the deposited data

Results flagged for a closer look

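Of 31 combinations of a member or the Bcl2a1 sum with a group of 4 or more libraries (2 for Bcl2, at 0 throughout, could not be examined), 2 held a library that stood apart from the others of its group by Dixon's criterion, where chance gives about 1.55. Bcl2 was at 0.905 CPM in LTβRΔN unstimulated replicate 3 and at 0 in the other libraries of that group, which rests on 4 counts. Bid was at 198 CPM in control stimulated replicate 3, and the nearest library of that group was at 227 CPM. The groups of 3 libraries were not examined in this way, so the high Mcl1 of control unstimulated replicate 1 was not eligible.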

How the results depend on the processing

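Alternatives were run for the fold changes of the 9 tested members with the label in both genotypes and of Mcl1 between unstimulated genotypes and in the interaction, and not for the other genes named. Of these values, 334 kept their direction and side of the threshold, 8 passed where the reported one did not, 1 no longer passed and 10 changed sign. The number of members called was 1 (control) and 0 (LTβRΔN) instead of 4 and 3 with at least 10 counts in every library, since only 6 members, without the Bcl2a1 genes, were then tested, and 2 and 1 with the Bcl2a1 genes summed to 1 row. Between unstimulated genotypes it was 1 (Mcl1) without the filter and in DESeq2, and 0 to 1 with each library left out, as in the interaction (0 to 1). Leaving out 1 library moved Bax in control neutrophils between -0.44 and 0.043, Bak1 in control between -0.15 and 0.22 and Bcl2l1 in LTβRΔN neutrophils between -0.36 and 0.090. Bak1 in control was -0.21 with library totals and -0.019 with the replicate block, and Bax in LTβRΔN neutrophils -0.50 with the index, whose effect rests on 1 control library. The cause was not tested. Over all genes, library totals gave 201 higher and 272 lower calls in control (260 and 61 with TMM) and 216 and 293 in LTβRΔN neutrophils (275 and 69). The index as a covariate left 157 calls of 321 and 79 of 344, and DESeq2 gave 14 calls for 2 between stimulated and 4 for 2 between unstimulated genotypes. Numbers in the column names recur under both labels. The 7 pairs they form correlated by only 0.021 to 0.069, yet 6 of 7 unstimulated libraries were most like the stimulated library of their own number. No label says what the numbers mark, so the reported fit did not use them, and whether the libraries are paired was not settled. With the replicate block the members called stayed at 4, 3 and 0 in the treatment contrasts and the interaction. A genotype contrast could not be fitted with it. Depth limits Bcl2 and the Bcl2a1d and Bcl2a1c counts of unstimulated libraries.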
